A study of Mus musculus with 48 samples.

Results

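Within the messages of 10 genes of the mouse striatum, some stretches, most of them annotated as noncoding, were counted at very different levels from one mouse to the next, while most coding stretches of the same genes were steadier. The genes are Smyd3, Phf10, Anp32e, Ipo9, Las1l, Herc1, Rnpep, Ppp1r12b, Blzf1 and Pkd2. They were chosen on earlier results from these same mice, by the spread of their exon bins between animals. Such a bin is a piece of a gene that the same annotated transcripts cover along its whole length. The 10 genes, matched by Ensembl identifier, are 10 of 36889 gene groups in the deposited exon table and hold 368 of its 368092 bins. All 10 also passed the test of exon usage between the sexes, so neither their spread nor their difference by sex is read as a finding here.

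The study sequenced striatal RNA of 8 112kb congenic mice, a line that carries a 112 kb congenic segment, and 8 C57BL/6J (B6) wild-type littermates. Each genotype had 4 males and 4 females, aged about 50 days. Punches of 3 mm from the left and the right striatum were pooled per animal, and each library was run on lanes 3, 4 and 5, which gives 48 runs. The title names differential splicing between the genotypes as the question, and mice are called here by their deposited column names.

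Most introns are cut out of a message before it leaves the nucleus, and a retained intron is one that stays in. The annotation holds such transcripts as noncoding, beside short processed transcripts that start or stop inside a gene. Reads that fall on them can come from messages that are not yet fully spliced, from messages held in the nucleus or from stable alternative transcripts. Rn45s is the precursor of the ribosomal RNAs, made in the nucleolus and largely without a poly(A) tail, so in a library selected for poly(A) it is a small part of the reads.

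The summed runs held 73.1 to 82.0 M gene counts and 118.5 to 133.2 M exon-bin counts per mouse (M, mega). Sample_4806, a wild-type mouse labelled female, had 2.73 counts-per-million (CPM) of Xist, which is made from the inactive X chromosome. The other mice labelled female had 958 to 1535 CPM of Xist and the males 1.32 to 17.3 CPM, so this library goes against its label for sex. Sample_4806 also had the highest Rn45s share, 0.439% of its gene counts. Sample_4804, a congenic female, had the next highest, 0.376%. Results in which Sample_4806 weighs most are given with and without it.

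Of the 368 bins, 245 hold coding sequence, 56 hold only untranslated sequence and 67 belong only to noncoding transcripts, among them 42 of retained-intron transcripts alone. A mean of at least 20 counts per mouse was reached by 311 bins. The share of a bin is its part, in percent, of all exon-bin counts of its gene in that mouse. Spread is given as the coefficient of variation (CV) of that share over the 16 mice, after the part due to counting was taken off. With a mean of at least 20 counts and a CV of at least 0.2, a limit set after the values were seen, 27 bins were variable. Of these, 20 were noncoding (74.1%), 4 untranslated and 3 coding, and 14 belonged to retained-intron transcripts alone. Just inside the limit lay Anp32e bin 025 at 0.201, Herc1 bin 045 at 0.204 and Ppp1r12b bin 009 at 0.205. Just outside lay Anp32e bin 026 at 0.199, Herc1 bin 006 at 0.196 and Rnpep bin 016 at 0.194.

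**Figure D1:**
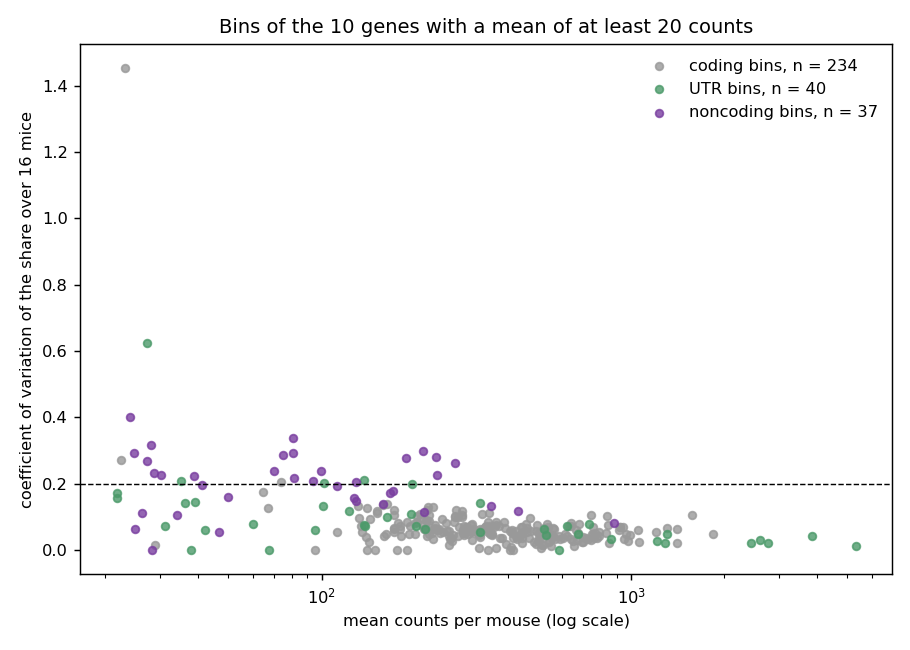
Coefficient of variation of each bin's share over 16 mice (vertical axis) against its mean counts per mouse (horizontal log axis) for the 311 bins of the 10 genes with a mean of at least 20 counts. Grey points are 234 coding bins, green 40 untranslated and purple 37 noncoding bins, and the dashed line marks 0.2: 20 of the 27 bins on or above it are noncoding.

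The sequences that the results turn on are mostly the starts of introns. The 20 variable noncoding bins all lie within introns of coding transcripts. Each was placed by its run of touching bins, which can be a single bin. Of these, 10 belong to a run that covers a whole intron. Another 7 belong to a run that starts at the 5′ splice site and stops inside the intron, 1 ends at the 3′ splice site and 2 touch neither. The 12 introns that continue from an exon into a variable bin all begin with GT, as did 97.3% of 69616 introns of coding transcripts on the same chromosomes. The motif GTAAGT, read on the strand of the gene from the first intron base, stood in 2 of the 12 (16.7%) and in 13.8% of the 69616. Below are 10 exon bases and 30 intron bases at 7 of these sites, shown because the variable stretches begin there. They come from the NCBIM37 (mm9) genome and run 5′ to 3′ on the strand of the gene, with the GT in capitals.
Ipo9, into bins 037 and 036 (chr1:137303064-137303103, minus strand): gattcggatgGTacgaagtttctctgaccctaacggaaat
Las1l, into bins 016 to 014 (chrX:93145646-93145685, minus strand): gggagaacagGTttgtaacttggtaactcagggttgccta
Herc1, into bins 093 and 094 (chr9:66346554-66346593, plus strand): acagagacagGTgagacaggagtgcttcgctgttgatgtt
Rnpep, into bins 007 and 006 (chr1:137163717-137163756, minus strand): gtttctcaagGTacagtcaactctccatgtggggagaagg
Ppp1r12b, into bin 014 (chr1:136678698-136678737, minus strand): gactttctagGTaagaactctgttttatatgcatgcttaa
Blzf1, into bin 011 (chr1:166236540-166236579, minus strand): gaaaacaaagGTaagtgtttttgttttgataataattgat
Pkd2, into bin 020 (chr5:104928343-104928382, plus strand): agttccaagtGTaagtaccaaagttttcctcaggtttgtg

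The introns of Blzf1 and Pkd2 are those with GTAAGT. The Ipo9 run is shown for its first 200 bases, since both of its bins were among the most variable noncoding bins with over 50 counts. Capitals mark bin 037, which ends where transcript Ipo9-006 ends, and lower case the start of bin 036.
Ipo9, bin 037 and the first 150 bases of bin 036 (chr1:137302894-137303093, minus strand): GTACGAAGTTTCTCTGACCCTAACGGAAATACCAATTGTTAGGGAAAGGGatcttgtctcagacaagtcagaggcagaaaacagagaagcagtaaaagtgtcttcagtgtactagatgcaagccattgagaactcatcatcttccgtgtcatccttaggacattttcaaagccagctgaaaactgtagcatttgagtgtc

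The variable noncoding bins had a median length of 600 bases and a median GC content of 42.6%. The 13365 noncoding bins of other genes with a mean of at least 20 counts, whatever their spread, had medians of 238 bases and 49.0%. Placed by run in the same way, 24.0% of those were part of a fully covered intron. Runs that started at a 5′ splice site held 19.2% and runs that ended at a 3′ splice site 16.6%, and 31.0% lay outside introns of coding transcripts. Variable noncoding bins of other genes were not set apart, so these values are not read as traits of the member genes. A poly(A) signal, AATAAA or ATTAAA on the strand of the gene, lay in the last 40 bases of 3 of the 20 noncoding transcripts that hold a variable bin (15%). It lay there in 21.9% of 6779 other retained-intron and processed transcripts and in 52.6% of 16032 protein-coding transcripts on the same chromosomes. A match or its absence describes these letters only.

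Several of the genes act in the nucleus. Smyd3, a lysine methyltransferase (ENSMUSG00000055067, chr1:180882091-181448172, minus strand), had 2 variable bins. Its bin 016 (chr1:181325355-181325962), the last exon of the protein-coding transcript Smyd3-004, was the most uneven of the 27, with a CV of 1.45. Bin 016 had 106 counts in the congenic mouse Sample_4804 and 118 in the wild-type mouse Sample_4806, and 2 to 16 counts in the other 14 mice. Those 2 mice are the pair with the highest Rn45s shares. Their counts were spread evenly over the lanes, with 32 to 44 counts in each of 6 runs. The other 42 runs held 0 to 9 counts. The join from intron to exon at the start of the bin is shown because the exon adds only a few codons before its stop; capitals mark its coding bases and the last 3 letters are the stop codon.
Smyd3, 30 intron bases and the first 18 bases of bin 016 (chr1:181325945-181325992, minus strand): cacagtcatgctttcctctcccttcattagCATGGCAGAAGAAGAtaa

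The other Smyd3 bin, 014, belongs to the processed transcript Smyd3-003. Its share ran from 0.386% to 0.849% with a median of 0.742% in congenic mice, and from 0.364% to 1.07% with a median of 0.702% in wild-type mice. Its rank correlation with the mean of the variable bins of the other genes was -0.12. With single bins it ran from -0.57 for Las1l bin 016 to 0.59 for Ipo9 bin 010 and 0.74 for Ppp1r12b bin 016.

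Phf10, a subunit of the PBAF chromatin remodelling complex (ENSMUSG00000023883, chr17:15081999-15129820, minus strand), had 1 variable bin, 021 (chr17:15129699-15129820), the first exon of transcript Phf10-201, which is untranslated. Its share ran from 0.144% to 0.887% with a median of 0.475% in congenic mice, and from 0.103% to 1.17% with a median of 0.644% in wild-type mice. In 9 mice it had 33 to 55 counts and in the other 7 mice 5 to 15. The 2 levels appeared in both genotypes and both sexes, but unevenly by sex. The higher level was seen in every mouse labelled female except Sample_4804. Among males only Sample_4672 and Sample_4673 had it. The higher level was not even over the lanes of a mouse. Of the 48 runs, 11 held 19 to 42 counts and the other 37 held 0 to 7. In 7 of the 9 mice with the higher level a single lane held the excess, and in the other 2 mice 2 lanes did. Sample_4737, a congenic female, had 2 counts in lane 3, 42 in lane 4 and 1 in lane 5. The lane dispersion index, which is chi-square over degrees of freedom for the 3 runs of a library against their gene totals, was 12.5 for this bin. It was 0.887 to 2.21 with a median of 1.61 for the other 26 variable bins. The spread of Phf10 bin 021 between mice thus came with a spread between runs of the same library. The end of this exon and the start of its intron, with the GT in capitals, are GC-rich (73.3% of 30 bases).
Phf10, last 10 bases of bin 021 and 20 intron bases (chr17:15129679-15129708, minus strand): gtccccaaagGTgagcggagcgcgctgccc

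**Figure D2:**
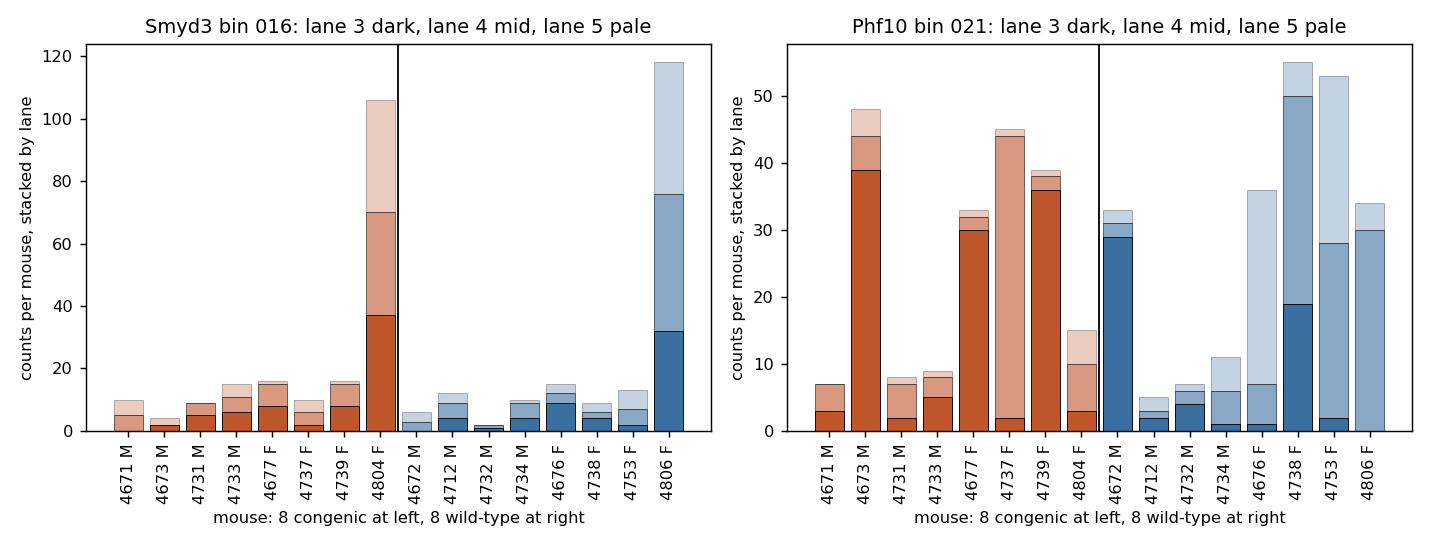
Counts of Smyd3 bin 016 (left) and Phf10 bin 021 (right) in each mouse, stacked by lane, with congenic mice (orange) left of wild-type mice (blue) and M or F for the labelled sex. The 106 counts of Sample_4804 and 118 of Sample_4806 in Smyd3 came from all 3 lanes, while the tall bars of Phf10 mostly came from 1 lane of a mouse.

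Anp32e, a chaperone that removes the histone variant H2A.Z (ENSMUSG00000015749, chr3:95733169-95751313, plus strand), is the member with least noncoding signal, 0.0298% of its exon counts. Its 2 variable bins, 024 and 025, are neighbouring pieces of untranslated sequence, 24 and 18 bases long, and their shares had a rank correlation of 0.94 over the 16 mice. Reads that span both are counted in both. Bin 024 had a share of 0.565% to 0.894% with a median of 0.618% in congenic mice, and of 0.436% to 0.923% with a median of 0.667% in wild-type mice. The congenic range lay within the wild-type range.

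Ipo9, an importin that carries histones and other cargo into the nucleus (ENSMUSG00000041879, chr1:137278889-137327076, minus strand), had 3 variable bins. Bins 036 (chr1:137302594-137303043) and 037 (chr1:137303044-137303093) follow each other and cover 91.9% of an intron of 544 bases. Bin 037, with a CV of 0.337, was the only bin of the 10 genes that met the stricter limit of a mean of 50 counts and a CV of 0.3. Bin 036 had a share of 0.574% to 1.33% with a median of 0.914% in congenic mice, and of 0.520% to 1.43% with a median of 1.02% in wild-type mice. The lowest and the highest mouse, Sample_4672 and Sample_4712, were both wild-type males. Per base, bin 036 was counted at 9.80% of the mean of the gene's coding bins. Bin 010, which with its neighbours covers another intron whole, did not follow them, with rank correlations of -0.02 with bin 036 and -0.11 with bin 037.

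Las1l, a protein needed to process the precursor of the ribosomal RNAs (ENSMUSG00000057421, chrX:93130674-93152301, minus strand), had the largest noncoding part of the 10 genes. Noncoding bins held 14.2 ± 1.35% of its exon counts in congenic mice and 14.3 ± 2.97% in wild-type mice (SD, n = 8 each). Its 3 variable bins, 014, 015 and 016 (together chrX:93143195-93145675), cover a whole intron of 2481 bases. Bin 015 had a share of 1.52% to 2.95% with a median of 2.29% in congenic mice, and of 1.23% to 3.29% with a median of 2.13% in wild-type mice. Bins 015 and 016 ranked the mice alike (rank correlation 0.92), and bin 014 less so, with 0.54 and 0.56. The intron of Las1l on chromosome X and that of Ipo9 on chromosome 1 moved together, with a rank correlation of 0.95 between Las1l bin 016 and Ipo9 bin 036. That was the highest of 316 pairs between variable bins of different genes.

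The other members act mainly in the cytoplasm or in membranes. Herc1, a very large ubiquitin ligase (ENSMUSG00000038664, chr9:66198257-66356582, plus strand), had the most bins of the 10, and 6 of its 100 were variable. Bins 093 and 094 (chr9:66346564-66348327), with the bin after them, cover a whole intron of 2419 bases. Bin 093 had a share of 0.462% to 0.891% with a median of 0.773% in congenic mice, and of 0.452% to 1.07% with a median of 0.662% in wild-type mice. It ranked the mice much as the other genes' bins did (0.71). Bin 007, which holds coding sequence, did not (-0.04), and bins 045, 048 and 069, each in an intron of its own, had 0.26, 0.28 and 0.15.

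Rnpep, aminopeptidase B, which trims basic residues from peptides (ENSMUSG00000041926, chr1:137159289-137180661, minus strand), had 4 variable bins, all of processed transcripts. Bins 006 and 007 (chr1:137163556-137163746) cover a whole intron of 191 bases. Bin 007 had a share of 1.04% to 2.24% with a median of 1.47% in congenic mice, and of 0.669% to 2.26% with a median of 1.41% in wild-type mice. Of the 27 bins it lay closest to the mean of the other genes' variable bins, with a rank correlation of 0.91. Bin 017, a stretch of 40 bases from a 5′ splice site, had 0.991% in the congenic male Sample_4673 and 0.346% to 0.586% in the other 7 congenic mice.

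Ppp1r12b, a targeting subunit of myosin phosphatase (ENSMUSG00000073557, chr1:136651235-136852519, minus strand), had 4 variable bins that did not move as one. Bin 014 (chr1:136675687-136678727) runs from a 5′ splice site over 64.8% of an intron of 4691 bases. Its share was 1.16% to 1.98% with a median of 1.59% in congenic mice, and 0.915% to 2.21% with a median of 1.40% in wild-type mice. Bin 014 ranked the mice as the other genes did (0.81). Bins 008 and 009, an untranslated and a coding stretch of 2 or more protein-coding transcripts, ranked them the other way (-0.52 and -0.49).

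Blzf1, also called golgin-45, a protein of the Golgi apparatus (ENSMUSG00000026577, chr1:166219931-166237620, minus strand), had the fewest exon counts of the 10. Its bin 011 (chr1:166235333-166236569) runs from a 5′ splice site over 49.2% of an intron of 2514 bases. The share was 2.16% to 4.63% with a median of 2.89% in congenic mice, and 2.35% to 4.09% with a median of 3.23% in wild-type mice. Both genotypes spanned most of the range seen over the 16 mice.

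Pkd2, the cation channel polycystin-2 (ENSMUSG00000034462, chr5:104888469-104934838, plus strand), had 1 variable bin although noncoding bins held 12.3 ± 0.873% of its exon counts in congenic mice and 12.3 ± 1.40% in wild-type mice (SD, n = 8 each). Its bin 020 (chr5:104928353-104930368) runs from a 5′ splice site over 68.2% of an intron of 2958 bases. The share was 0.599% to 1.44% with a median of 1.07% in congenic mice, and 0.688% to 1.42% with a median of 1.19% in wild-type mice. Per base it was counted at 2.64% of the mean of the gene's coding bins.

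**Figure D3:**
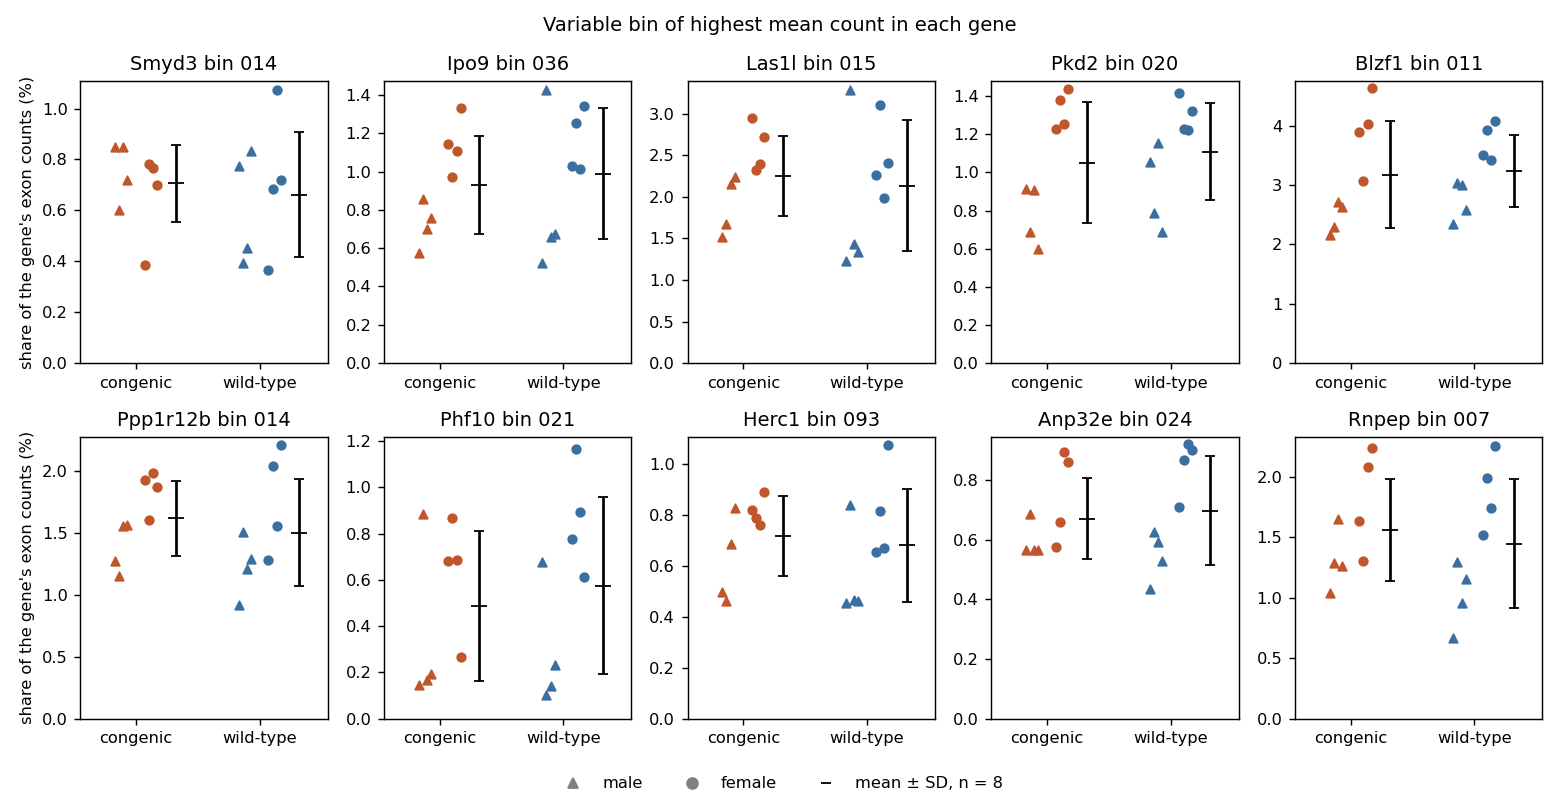
Share of the gene's exon counts (vertical axes, percent, from 0) of the variable bin of highest mean count in each of the 10 genes, for congenic mice (left of each panel) and wild-type mice (right). Triangles are males and circles females as labelled, bars are the mean ± SD over 8 mice, and in every panel the genotypes overlap.

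Of the 234 coding bins of these genes with a mean of at least 20 counts, 231 had a CV under 0.2, and the median was 0.0553. The other 3 were Smyd3 bin 016, Herc1 bin 007 and Ppp1r12b bin 009. The coding bin of highest mean count in each gene had a CV of 0.0205 to 0.104, and its highest share was 1.11 to 1.48 times its lowest. For the 27 variable bins the CV was 0.201 to 1.45 with a median of 0.261, and the highest share was 2.03 to 61.6 times the lowest. That contrast follows from the limit that chose the bins. In the whole table, bins of noncoding transcripts were also the less steady kind. With a mean of at least 20 counts, 17.7% of 13402 noncoding bins passed a CV of 0.2, against 2.19% of 159360 coding bins, 6.15% of 26056 untranslated bins and 3.75% of all 198818 annotated bins. Bins of retained-intron transcripts alone passed in 23.3% of 6296 cases. Low counts alone make runs of a library differ, and 11 of the 27 variable bins had a mean under 40 counts. Yet the runs differed by more than that. The lane dispersion index is about 1 under counting alone, and its median was 1.61 in the 26 bins other than Phf10 bin 021. The part taken off the CV for counting does not cover this excess. The SD of the share between mice was larger than the SD between the 3 lanes of a mouse for 16 of the 27 bins, with a ratio of 0.463 to 4.53 and a median of 1.02. A ratio of 0.577 is what lanes alone would give if mice did not differ, and 1 bin, Phf10 bin 021, lay below it. Ipo9 bin 036 had 1.87, Las1l bin 016 1.89, Herc1 bin 093 1.94 and Smyd3 bin 016 4.53.

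The variable bins tended to rank the mice alike. Over the 316 pairs of bins from different genes the median rank correlation was 0.26, with 225 pairs positive and 84 at 0.5 or more. With 1 bin per gene, that of highest mean count, the median was 0.56 over 45 pairs, of which 35 were positive. All of the bins in that set but Smyd3 bin 014 were also called by sex, and no median within a sex was taken for it. All these values are descriptions over 16 mice that share the same libraries, and 12 of the 27 bins were also called by sex. Within males the median of the 316 pairs was 0.11 and within females 0.14. The mean centred log2 share of the 27 bins was highest in Sample_4806 (0.45), Sample_4804 (0.33) and Sample_4739 (0.28), all labelled female. It was lowest in the males Sample_4672 (-0.38), Sample_4671 (-0.38) and Sample_4732 (-0.37). Every mouse labelled female lay above every male, with -0.036 in the lowest female, Sample_4676, and -0.044 in the highest male, Sample_4733. The order of the mice by this mean is thus also an order by labelled sex, a contrast that chose the members.

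**Figure D4:**
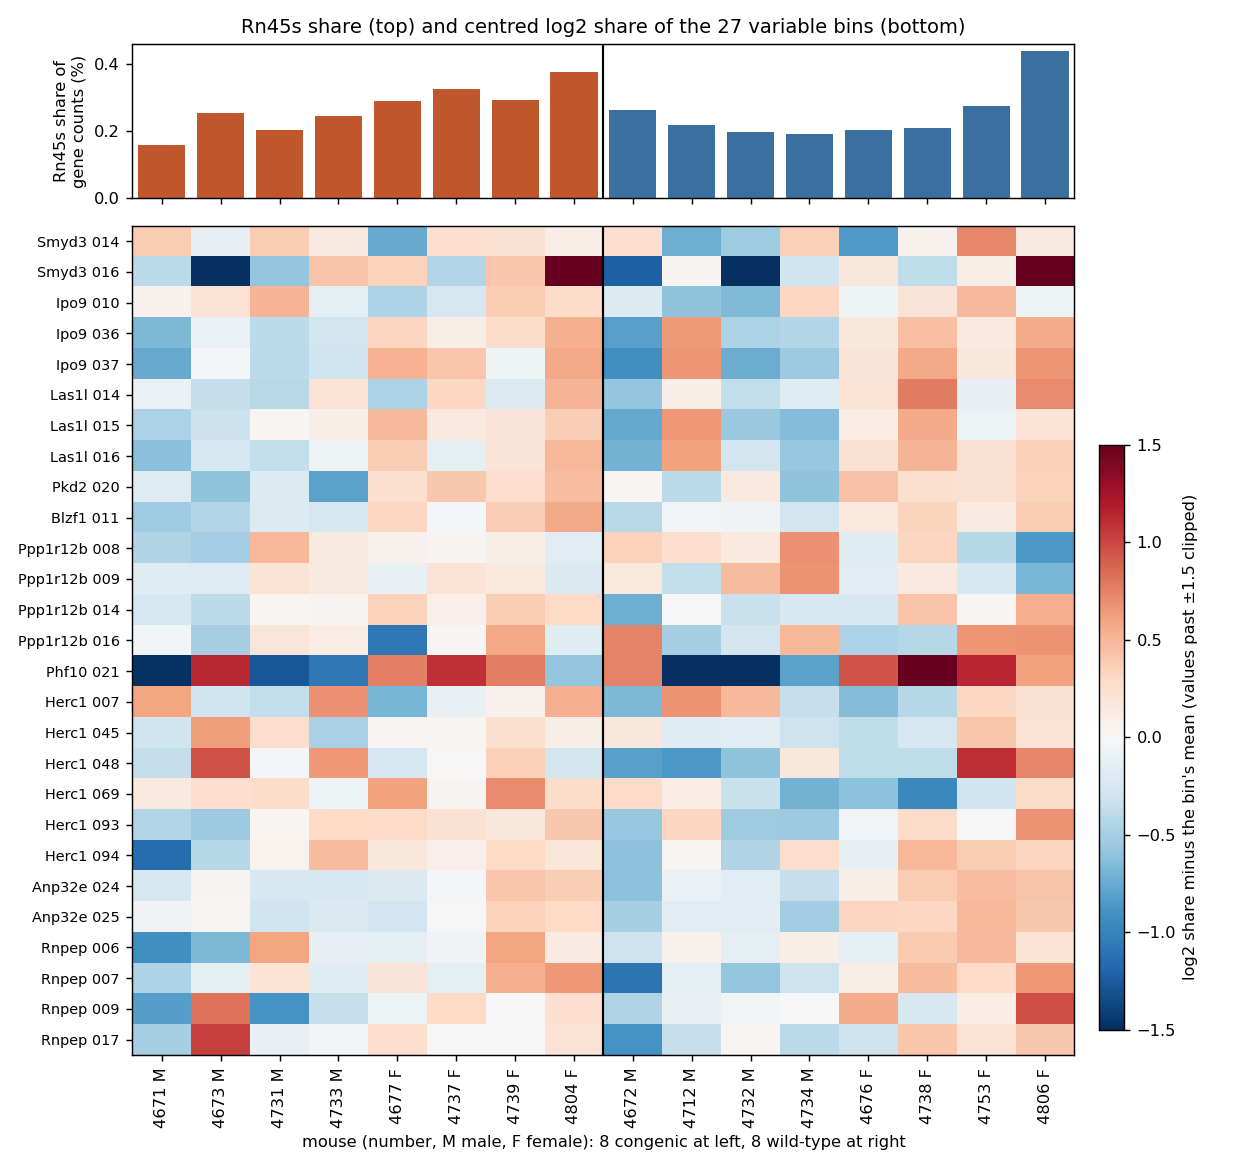
Rn45s share of gene counts per mouse (bars, percent) above the log2 share of the 27 variable bins, each centred on its mean over 16 mice (red higher, blue lower, clipped past 1.5). Congenic mice are left of the line and wild-type mice right of it, males before females, and the columns of Sample_4804 and Sample_4806 are red in most bins.

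This mean followed the Rn45s share. Over 16 mice the rank correlation was 0.76 and Pearson's r on log2 values 0.75. It was 0.64 without Sample_4804 and Sample_4806, the mice farthest from the median Rn45s share, and 0.76 without Phf10 bin 021 and Smyd3 bin 016. It was 0.95 within congenic and 0.55 within wild-type mice, and 0.24 within males and 0.74 within mice labelled female. Without Sample_4806 it was 0.32 within wild-type mice and 0.61 within females (n = 7 each). The mean of the bins and the Rn45s share were both higher on average in mice labelled female. Over all 16 mice the relation with Rn45s cannot be told apart from one with labelled sex. Bin by bin, 22 of the 27 correlated positively with Rn45s, 12 of them at 0.5 or more, with a median of 0.47. Blzf1 bin 011 had the highest value, 0.64, and Ppp1r12b bins 008 and 009 the lowest, -0.42 and -0.41. Among 7762 variable bins of other genes the median was 0.06, and 5.55% reached 0.5. Among the 2352 of them that are noncoding it was 0.11, and 7.82% reached 0.5. The members were named with this relation in view, so it is given without a test.

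**Figure D5:**
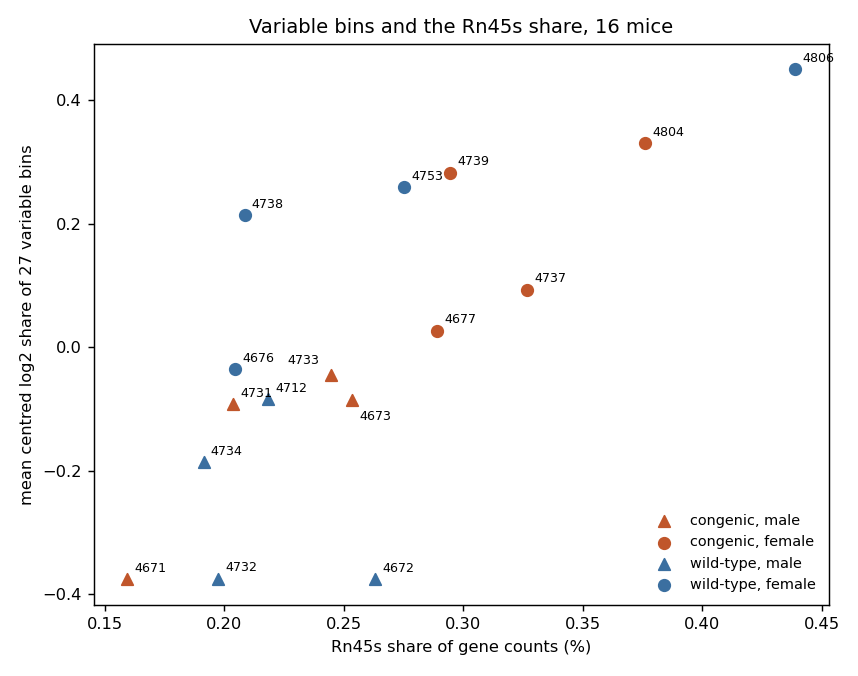
Mean centred log2 share of the 27 variable bins (vertical axis) against the Rn45s share of gene counts (horizontal axis, percent), 1 point per mouse with its number. Orange points are congenic and blue wild-type mice, triangles males and circles females as labelled, and Sample_4806 and Sample_4804 lie at the upper right.

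The genotypes overlapped in their Rn45s share. It averaged 0.269 ± 0.0686% in congenic and 0.250 ± 0.0824% in wild-type mice (SD, n = 8 each; exact two-sided permutation test, p = 0.633). Without Sample_4806 the wild-type mean was 0.223 ± 0.0331% (SD, n = 7), and the difference, 0.0187 percentage points over all 16 mice, was 0.0458 (exact two-sided permutation test, p = 0.131). By labelled sex the share was 0.217 ± 0.0354% in males and 0.302 ± 0.0793% in females (SD, n = 8 each; exact two-sided permutation test, p = 0.0118). It was 0.282 ± 0.0612% in the 7 mice labelled female left without Sample_4806 (SD). In the fit with the log2 Rn45s share as a term beside genotype and sex, 8 of 235478 bins were called at an adjusted p under 0.05 (0.0034%). Of these 8, 1 was a bin of the 10 genes, Smyd3 bin 016, and it was not among the bins called without Sample_4806, the mouse with the most Rn45s. The members were named with the Rn45s share in view, so nothing is read from this count.

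No bin of the 10 genes passed the test between the genotypes. In edgeR's exon usage test with sex in the model, where a bin is compared with all other bins of its gene, 0 of 327 tested bins of the 10 genes passed a Benjamini-Hochberg adjusted p under 0.05. Over the whole exon data 1 of 235478 bins passed (0.000425%). At an unadjusted p under 0.05 stood 2 bins of the 10 genes, where the table held 2426 (1.03%). One was Herc1 bin 069, in a retained intron, with a share of 0.0873 ± 0.0164% in congenic and 0.0610 ± 0.0196% in wild-type mice (SD, n = 8 each). Its log2 fold change was 0.52 (SE 0.21) and its adjusted p in edgeR 1.0. The other was Smyd3 bin 010, a coding bin outside the variable set, with 4.21 ± 0.415% in congenic and 4.93 ± 0.464% in wild-type mice (SD, n = 8 each).

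Between genotypes, the 27 variable bins moved in both directions. Their log2 fold changes ran from -0.26 to 0.52 with a median of -0.04 and SEs of 0.0750 to 0.256, with 12 higher and 15 lower in congenic mice. The median over all tested bins was -0.00. In all 27 bins the genotypes overlapped. The bins were chosen for a wide spread and the share over the whole table is not given here, so nothing is read from that count. Ipo9 bin 036 averaged 0.930 ± 0.255% in congenic and 0.990 ± 0.342% in wild-type mice (SD, n = 8 each). Las1l bin 015 averaged 2.25 ± 0.480% in congenic and 2.13 ± 0.787% in wild-type mice (SD, n = 8 each). For Smyd3 bin 016 the SD was larger than the mean, at 0.503 ± 0.685% in congenic and 0.523 ± 0.864% in wild-type mice (SD, n = 8 each). Its wild-type mean was 0.219 ± 0.103% without Sample_4806 (SD, n = 7).

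By gene, 0 of the 10 passed the Simes test of exon usage by genotype, where 1 of 14875 genes did over all genes tested (0.00672%). At an unadjusted p under 0.05 also stood 0 of the 10, beside 73 in the table (0.491%), and limma with voom called 0 genes. When bins were summed by class, 0 of the 10 genes passed and 0 of 25067 class rows in the table did (0%), with 132 rows at an unadjusted p under 0.05 (0.527%). At the level of the whole gene, edgeR called 0 of the 10 and 0 of 16716 genes (0%), with 256 at an unadjusted p under 0.05 (1.53%), none of them a member. DESeq2 called 0 genes, with 268 at that level. The level of Herc1, the member with most counts, averaged 307 ± 14.7 CPM in the congenic and 312 ± 23.2 CPM in the wild-type group (SD, n = 8 each). That of Blzf1 averaged 26.0 ± 0.914 CPM in the congenic and 25.6 ± 1.04 CPM in the wild-type group (SD, n = 8 each). In punches of tissue, fewer cells of a type and less of an RNA per cell cannot be told apart.

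By labelled sex all 10 members were called, so this contrast counts as one that chose them and its values are a description. For sex, 37 of 235478 bins in the table were called (0.0157%), 29 of them lower in males (0.0123%), and 13 were bins of the 10 genes, all lower in males. Of those 13, 12 are variable bins; the other is Anp32e bin 026. By gene, 19 of 14875 were called (0.128%), all 10 members among them. Pkd2 bin 020 had 0.599% to 1.16% in males and 1.22% to 1.44% in mice labelled female, with no overlap. Blzf1 bin 011 had 2.16% to 3.03% in males and 3.08% to 4.63% in mice labelled female, also with no overlap. Sample_4806, counted here by its label, had 1.32% for Pkd2 bin 020 and 4.09% for Blzf1 bin 011. Without it these ranges stayed the same, but counted with the males it would make the sexes overlap in both bins. In the other 25 variable bins the sexes overlapped. The share of bins without overlap over the whole table is not given here, so nothing is read from this count. For Ipo9 bin 036 a wild-type male, Sample_4712, was the highest of all 16 mice, although the log2 fold change of males over females was -0.57 (SE 0.08). The other called bins had -0.43 (SE 0.09) for Anp32e bin 026 to -1.17 (SE 0.22) for Phf10 bin 021 and -2.12 (SE 0.27) for Smyd3 bin 016.

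Fewer bins were called when the library that goes against its label was left out. Without Sample_4806, 12 of 237810 bins were called for sex (0.00505%), 7 of them lower in males (0.00294%), and 7 of 14995 genes (0.0467%). Of the 10 genes, 6 bins and 5 genes remained: Ipo9 bins 036 and 037, Phf10 bin 021, Las1l bin 016, Pkd2 bin 020 and Smyd3 bin 016. Smyd3 bin 016 had -1.44 (SE 0.28) without that mouse. Of these 6 bins, 4 lie in introns of Ipo9, Las1l and Pkd2. The fit used summed lanes, so the call of Phf10 bin 021 rests on an excess that lay in 11 of 48 runs. The counts by genotype were 0 for bins and genes without that mouse too.

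The makeup of the RNA moved with the same bins, and its part in the results was not tested. The summed level of 11 nuclear long noncoding RNAs had a rank correlation of 0.83 with the mean of the 27 bins, and 10 of the 11 correlated positively. Its range was 11026 to 13924 CPM in congenic and 9537 to 14224 CPM in wild-type mice. The list holds Xist, which was high in the mice labelled female other than Sample_4806. Without Xist the sum had 0.53, and the other 10 genes had -0.39 (Peg13) to 0.79 (Rian) with a median of 0.36. The 10 markers of striatal projection neurons, the main neurons of this tissue, all correlated negatively, with -0.60 for their sum. Their sum was 8902 to 11101 CPM in congenic and 9371 to 11093 CPM in wild-type mice, so the tissue carried its defining markers in every mouse. Drd1a and Drd2, the dopamine receptors of the direct and the indirect pathway neurons, had -0.78 and -0.76. The 5 cortical excitatory markers, 30.3 to 259 CPM in congenic and 66.2 to 230.0 CPM in wild-type mice, had 0.34 for their sum. The sum of the 3 choroid plexus markers had -0.56, with Ttr at -0.57, Kl at -0.49 and Folr1 at 0.36. The sum of the 3 ependymal markers had 0.37, and all 3 correlated positively. Over the rest of the exon table, the share of counts in coding bins was 80.4% to 81.7% per mouse, with a rank correlation of -0.79 with the mean of the 27 bins, and that in noncoding bins was 2.62% to 3.27%, with 0.61.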

How the data were processed

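The authors deposited whole-number read counts per gene and per exon bin, not normalised, for each run, per the file headers. Per the submitters' processing notes, edgeR 3.8.6, limma 3.22.7, HTSeq 0.6.1p1 and FastQC 0.10.1 were used, with no role stated, and both mm9 and mm10 are listed. Aligner and strand setting are not given in the sources used here. Reads of overlapping antisense genes thus cannot be told apart, and a read that spans several bins may be counted in each. The labels disagree on the reads (50 bp single-end or 100 bp paired-end), so a count is called a count.

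Lanes were summed per mouse, and n counts mice. The bins were remade from GENCODE's NCBIM37 (mm9) annotation, and their number matched in 16988 of the 17483 genes that have 5 bins or more (97.2%). Classes, coordinates and sequence come from that build. Exon usage was tested over the whole table with edgeR 4.0.16 in R 4.3.3 (filterByExpr with a minimum count of 10 and total of 15, TMM, quasi-likelihood fit, diffSpliceDGE, Simes per gene), with coefficients converted to log2, at a Benjamini-Hochberg adjusted p under 0.05, two-sided. limma 3.58.1 and DESeq2 1.42.0 were alternatives, and the edgeR fits were also run on simulated data. There the exon fit recovered 72% of 1.5-fold and 100% of 2-fold changes, and 16 of 188 called bins had not been changed. All simulated bins had the same spread beyond counting, so this does not show what change could be found in the variable bins. Bin shares for the mean over bins used log2 of the count plus 0.5 over the gene total. Correlations are Spearman's unless named.

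The members, lists and tests were chosen with earlier results of these data known. The written rule named, per gene, each variable bin and the coding bin of highest mean count, with a variable bin defined by a mean of 50 counts and a CV of 0.3. It found 1 bin, so the looser limit used in the text was added after the values were seen, as was the count of runs by lane.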

Additional observations from a re-analysis of the deposited data

Results flagged for a closer look

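Of 76 groups of 8 mice examined, 5 held a mouse that stood far from the rest of its group. The limit was set so that chance gives about 1 group in 20. Most of the groups were shares of the variable bins, chosen for their spread between mice, so that rate does not apply to them. Both groups of Smyd3 bin 016 were among the 5. The congenic mouse Sample_4804 had a share of 2.18% where the next congenic mouse had 0.386%, and the wild-type mouse Sample_4806 had 2.65% where the next wild-type mouse had 0.321%. Sample_4806 also had a Rn45s share of 0.439%, against 0.275% in the next wild-type mouse. Rnpep bin 017 had a share of 0.991% in the congenic mouse Sample_4673, and the next congenic mouse had 0.586%. The gene Blzf1 was at 28.0 CPM in the congenic mouse Sample_4731, above the 26.1 CPM of the next.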

How the results depend on the processing

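The counts of 0 by genotype held under every alternative run: scaling, filters, limma or DESeq2, no sex term, the Rn45s share as a term, without Sample_4673 or Sample_4806, each sex and each lane, as far as each applied. The member bins called for sex numbered 13, and 6 without Sample_4806; the bins called along Rn45s numbered 8, and 5 without the mouse of highest share. The number of variable bins depended on its limits. It was 1 under the written rule, 16 at a CV of 0.2, 0 at a CV of 0.5, 5 at a mean of 20 counts, 0 at a mean of 200, 2 by CPM, 0 in lane 5 alone, 27 under both looser limits, and 1 to 3 when mice were left out in turn. The correlation with Rn45s, 0.76 over all mice, was 0.95 within congenic mice, 0.55 within wild-type mice (0.32 without Sample_4806), 0.24 within males, 0.57 in lane 4 alone and 0.70 to 0.87 when mice were left out in turn. The median correlation between bins of different genes, 0.26, was 0.35 within wild-type mice, 0.11 within males, 0.14 within females (0.11 without Sample_4806), 0.13 in lane 3, 0.17 in lane 4, 0.14 in lane 5, 0.56 with 1 bin per gene and 0.22 to 0.29 when mice were left out in turn. The difference in Rn45s share by genotype was 0.00339 to 0.0458 percentage points when mice were left out in turn, lowest without Sample_4804 and highest without Sample_4806. The causes were not tested. Mean counts under 40 per mouse limit 11 of the 27 bins, in Smyd3, Phf10, Herc1, Rnpep and Ppp1r12b. Each number names 1 mouse and the groups share none. The wild-type mice are littermates, but the sample labels used here give no litter, so pairing by litter was not possible.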

Other observations

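Outside the 10 genes, the variable bins that ranked the 16 mice most like the mean of the 27 bins belonged to Gga2, Fip1l1, Atp1b2, Eno1, Sf1, Cd163, Copa, Srsf10, Gm129 and Nisch, taken as the bin of highest rank correlation from each of 4068 genes with 6935 such bins. Gga2 bin 001, untranslated sequence of a clathrin adaptor at the trans-Golgi, had 0.93 and a share of 1.36% to 3.01%. Fip1l1 bin 035, untranslated sequence of a subunit of the polyadenylation machinery, had 0.88. Srsf10 bin 009, in a processed transcript of a splicing regulator, had 0.84 and the highest mean count of the 10, 276. Sf1 bin 046, untranslated sequence of the splicing factor that binds the branch point, had 0.85. Of these 10 bins, 4 were noncoding, 3 untranslated and 3 coding. They are the top of a ranking over many bins, and no test was made.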
